A study of Mus musculus with 24 samples.

Results

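H3K4me3 was compared between Lgr5+ and Lgr5- basal cells of the mouse mammary gland in 8 libraries, 4 on each side, of the 16 libraries with counts in the series. The members are every H3K4me3 library, placed by the sorted subpopulation in its label. The Lgr5+ side was made of 2 libraries of Lgr5+Tspan8hi and 2 of Lgr5+Tspan8- cells, and the Lgr5- side of 2 libraries of Lgr5-Tspan8hi and 2 of Lgr5-Tspan8- cells. Each difference gives equal weight to both Tspan8 states. All groups were untreated cells sorted by flow cytometry directly from the glands of C57BL/6 females, with no age and no pooling stated in the labels. The other libraries with counts are 8 of H3K27me3 from the same subpopulations, which serve here as a second readout. The series has 24 labelled samples, and no value was set against its 8 inputs, which were not analysed here. The title places the study in a search for hormone-responsive, rarely dividing mammary stem cells, and the design sets the histone marks of the subpopulations side by side.

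H3K4me3, trimethylation of lysine 4 on histone H3, is laid down around the start of genes that are transcribed or poised for transcription, and it marks CG-rich promoters most strongly. H3K27me3 is placed by Polycomb complexes over repressed genes, and promoters of developmental regulators can carry both marks. Lgr5 is a receptor for R-spondins, secreted proteins that strengthen Wnt signalling, and it labels stem cells of the intestine and part of the basal layer of the mammary gland. Basal cells are the outer epithelial layer and include the contractile myoepithelial cells.

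Across 19009 tested genes, which sit at 16983 promoters when starts within 2 kb are merged, H3K4me3 differed past the threshold at 8 genes, which is 0.0421% of those tested. It was lower in Lgr5+ libraries at 6 genes (0.0316%), which lie at 4 promoters, those of Dcn, Pde3a, Tbx2 with 2610027K06Rik, and Ptprt with 9430021M05Rik. It was higher at 2 genes (0.0105%), Tbx3os2 and Cntn2, each at a promoter of its own. The test was edgeR's quasi-likelihood test with Benjamini-Hochberg adjustment over all tested genes and a threshold of 0.05, and all adjusted p-values below are from it. An unadjusted p under 0.05 was reached by 947 genes (4.98%), of which 485 were higher (2.55%) and 462 lower (2.43%). Log2 differences, always Lgr5+ minus Lgr5-, had a median of 0.0034 over all tested genes, with 50.8% above and 49.2% below 0, and their 5th and 95th percentiles were -0.577 and 0.483.

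The windows printed below, of 3 called promoters, run from 250 bases before to 50 bases after the gene start in the RefSeq annotation of GRCm38.p6, 5′ to 3′ on the gene's own strand, with every CG dinucleotide in capitals. They are shown because a window was listed for Ptprt, which was lower in Lgr5+ libraries, and for Cntn2 and Tbx3os2, which were higher. No window was listed for Dcn, Pde3a or Tbx2, so Ptprt alone stands for the lower promoters. The Ptprt window is chr2:162661098-162661397, the Cntn2 window chr1:132542891-132543190 and the Tbx3os2 window chr5:119691169-119691468, all on the minus strand.
Ptprt: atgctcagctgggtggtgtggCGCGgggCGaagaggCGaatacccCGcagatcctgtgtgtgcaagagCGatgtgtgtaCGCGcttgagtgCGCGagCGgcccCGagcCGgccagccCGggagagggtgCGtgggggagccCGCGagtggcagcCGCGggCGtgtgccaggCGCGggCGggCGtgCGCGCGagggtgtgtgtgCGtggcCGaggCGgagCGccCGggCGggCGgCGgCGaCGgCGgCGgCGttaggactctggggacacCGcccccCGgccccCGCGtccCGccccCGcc
Cntn2: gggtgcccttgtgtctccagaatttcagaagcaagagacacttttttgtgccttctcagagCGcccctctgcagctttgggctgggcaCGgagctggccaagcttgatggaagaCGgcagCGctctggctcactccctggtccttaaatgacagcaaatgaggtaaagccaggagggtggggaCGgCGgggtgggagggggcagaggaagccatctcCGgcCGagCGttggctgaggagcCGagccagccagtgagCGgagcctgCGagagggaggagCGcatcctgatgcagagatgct
Tbx3os2: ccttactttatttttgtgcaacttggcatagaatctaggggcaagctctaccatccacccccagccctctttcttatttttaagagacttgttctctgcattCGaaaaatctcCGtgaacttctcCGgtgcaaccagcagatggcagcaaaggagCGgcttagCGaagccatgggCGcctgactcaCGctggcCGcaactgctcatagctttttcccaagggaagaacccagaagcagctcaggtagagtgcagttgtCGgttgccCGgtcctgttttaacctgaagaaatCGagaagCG

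The Ptprt window held 46 CG dinucleotides, with a GC content of 77.3% and a ratio of observed to expected CG of 1.06. The windows of Cntn2 and Tbx3os2 held 13 and 12, with ratios of 0.479 and 0.626. The median over 32851 promoter windows of 27025 genes was 7 CG dinucleotides, so all 3 were above it. None of them held TATAAA, the core of a TATA box, or CTTTGA, the core letters of a TCF/LEF site, on either strand; 13.6% and 16% of all windows hold these letters. Over CG-rich promoters (GC over 55% and a ratio over 0.6, 7372 tested genes) the median log2 difference was 0.0172, and over CG-poor ones (6276 genes) it was -0.0076. Over the 5361 tested genes without a listed window, which hold 4 of the 8 calls, it was -0.0124.

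Total counts ran from 1472251 to 4740371 per library. Replicate libraries of every subpopulation differed by more than sampling noise (chi-square per degree of freedom 2.9 to 4.89), and the labels leave unsaid whether replicates were separate animals. The p-values therefore reflect the spread among these libraries alone, largely pooled over genes, and that spread may be technical. Lgr5-Tspan8hi replicate 1 stood apart on the first principal component (24% of the variance of 13888 genes) and had 5844 of 27080 genes at 0, against 662 to 3007 in the other libraries. None of the first 4 components separated Lgr5+ from Lgr5- libraries. Over 6 measures of library quality, including the total count, the genes at 0 and the share of counts on the X chromosome, no difference with Lgr5 reached significance (exact two-sided permutation p from 0.229 to 0.886, n = 4 each). Of the basal and myoepithelial markers, 19 of 20 were tested, and the defining genes Krt5 and Krt14 averaged 140 and 131 CPM (read counts scaled by library total and TMM factor) in Lgr5+ libraries and 142 and 131 CPM in Lgr5- libraries. Markers of other cell types are given beside the results they touch.

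The sorting gene Lgr5 (chromosome 10, 115450314 to 115587780, minus strand; GRCm38 throughout) had an H3K4me3 level of 61.7 and 94.5 CPM in Lgr5+Tspan8hi libraries and 95.9 and 100 CPM in Lgr5+Tspan8- libraries, against 74.3 and 80.8 CPM in Lgr5-Tspan8hi and 51.9 and 72.8 CPM in Lgr5-Tspan8- libraries. Within Tspan8- cells both Lgr5+ libraries lay above both Lgr5- libraries, and within Tspan8hi cells they overlapped. The log2 difference was 0.32 ± 0.14 (SE) on average and did not pass (adjusted p = 0.961). It was 0.02 within Tspan8hi and 0.62 within Tspan8- cells, and the test of that contrast gave an unadjusted p of 0.0416 (adjusted p = 1.0). H3K27me3 at Lgr5 was 112, 62.6, 64.7 and 60.3 CPM in the 4 Lgr5+ libraries, Tspan8hi before Tspan8-, against 112, 96.6, 163 and 125 CPM in the Lgr5- libraries in the same order. Its log2 difference was -0.72 ± 0.14 (adjusted p = 0.0536) and passed under 8 of 16 alternatives, namely DESeq2, limma-voom, no filter, the replicate block and 4 of the 8 left-out libraries (adjusted p from 0.00049 to 0.511 over all 16). Within Tspan8- cells it was -1.20 and passed (adjusted p = 0.007), as 29 of 22099 genes did (0.131%), and within Tspan8hi cells it was -0.25 (adjusted p = 0.806). The contrast of these H3K27me3 values did not pass (adjusted p = 0.584). The other sorting gene, Tspan8, had an H3K4me3 log2 difference of 0.07 with Lgr5 (adjusted p = 1.0).

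**Figure D1:**
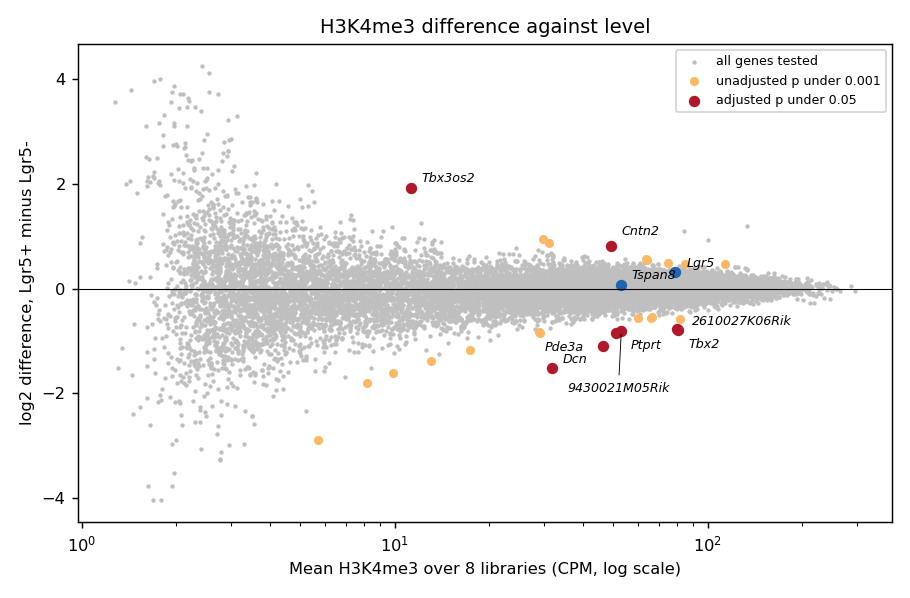
H3K4me3 log2 difference, Lgr5+ minus Lgr5-, against the mean level over 8 libraries (CPM, log scale) for 19009 genes (grey), with genes of unadjusted p under 0.001 in orange, the 8 genes past the threshold in red and the sorting genes Lgr5 and Tspan8 in blue. The red genes run from -1.52 at Dcn to 1.93 at Tbx3os2, and Lgr5 at 0.32 lies inside the cloud.

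Dcn encodes decorin, a small proteoglycan that binds collagen fibrils and growth factors such as TGF-beta, and is a marker of fibroblasts. At Dcn (chromosome 10, 97479500 to 97518163, plus strand) H3K4me3 was 12.9 and 9.38 CPM in Lgr5+Tspan8hi and 27.3 and 15.8 CPM in Lgr5+Tspan8- libraries, against 22.8 and 41.8 CPM in Lgr5-Tspan8hi and 65.3 and 58.9 CPM in Lgr5-Tspan8- libraries. Lgr5+ libraries were lower within each Tspan8 state, and across states a single pair overlapped, Lgr5+Tspan8- replicate 1 and Lgr5-Tspan8hi replicate 1. Over Lgr5+ libraries the mean was 16.3 ± 7.79 CPM, and over Lgr5- libraries 47.2 ± 19.1 CPM (SD over 4 libraries on each side), a ratio of 0.346. The log2 difference was -1.52 ± 0.24 (SE; adjusted p = 0.000145), with -1.56 within Tspan8hi and -1.47 within Tspan8- cells. These levels rest on 23 to 279 reads per library. H3K27me3 at Dcn did not pass (log2 difference 0.10 ± 0.19, adjusted p = 0.949), with means of 21.8 CPM in Lgr5+ libraries and 20.7 CPM in Lgr5- libraries.

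Decorin belongs to the small leucine-rich proteoglycans, of which 13 of 15 were tested, 8 had a log2 difference below 0 and 1, Dcn, passed; their median was -0.056. Lum, the gene of lumican and the only tested gene within 500 kb of Dcn, averaged 4.36 CPM in Lgr5+ libraries and 5.49 CPM in Lgr5- libraries and did not pass (log2 difference -0.32 ± 0.70). Of 14 fibroblast markers 13 were tested, 9 lay below 0 with a median of -0.188, and Dcn alone passed. Summed, they gave 365 to 459 CPM in Lgr5+ libraries and 340.5 to 511 CPM in Lgr5- libraries, and without Dcn 355 to 443 CPM and 318 to 452 CPM. Without Dcn 8 of 12 tested markers lay below 0, with a median of -0.169. The fibroblast markers of smallest p after Dcn were Prrx1, at 56.6 and 68.8 CPM, and Thy1, at 18.5 and 23.6 CPM (Lgr5+ and Lgr5- means). Their log2 differences were -0.27 and -0.36 and did not pass. The collagen genes Col1a1, at 30.9 and 31.5 CPM, and Col1a2, at 25.4 and 21.0 CPM, did not pass either, with -0.06 and 0.25. The whole list ran from -1.52 to 0.25. The part of fibroblasts in the Dcn difference was not tested, and in sorted bulk cells fewer cells that carry a mark and less of the mark in each cell cannot be told apart.

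Pde3a encodes phosphodiesterase 3A, which breaks down cyclic AMP and is inhibited by cyclic GMP. Its H3K4me3 (chromosome 6, 141249269 to 141506862, plus strand) was 15.9 and 19.4 CPM in Lgr5+Tspan8hi and 39.0 and 49.3 CPM in Lgr5+Tspan8- libraries, against 44.7 and 43.4 CPM in Lgr5-Tspan8hi and 73.5 and 84.9 CPM in Lgr5-Tspan8- libraries. Lgr5+ libraries were lower within each Tspan8 state without overlap, while Lgr5+Tspan8- and Lgr5-Tspan8hi libraries overlapped. The log2 difference was -1.09 ± 0.19 (adjusted p = 0.000877), with -1.31 within Tspan8hi and -0.87 within Tspan8- cells, and the call ended without Lgr5-Tspan8- replicate 2 (adjusted p = 0.136). H3K27me3 at Pde3a ran the opposite way, at 312, 343, 272 and 262 CPM in the Lgr5+ libraries, Tspan8hi before Tspan8-, against 256, 264, 135 and 122 CPM in the Lgr5- libraries in that order. Its log2 difference was 0.69 ± 0.09 (adjusted p = 0.000423), and Lgr5+ libraries lay above Lgr5- libraries within each Tspan8 state, as at 869 genes in this mark (3.93%). Within Tspan8- cells the H3K27me3 log2 difference was 1.06 and passed (adjusted p = 0.000147). Within Tspan8hi cells it was 0.33 and did not pass (adjusted p = 0.662).

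Of 20 cyclic nucleotide phosphodiesterase genes 16 were tested, 10 lay below 0 (median -0.129) and Pde3a alone passed. Pde4a, which degrades cyclic AMP, was at 55.7 to 68.5 CPM in Lgr5+ libraries and 73.3 to 96.6 CPM in Lgr5- libraries without overlap, yet did not pass (log2 difference -0.48 ± 0.15, adjusted p = 0.691). Pde7b, also specific for cyclic AMP, did not pass either.

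Tbx2 is a T-box transcription factor, mostly a repressor, that acts with its relative Tbx3 when the mammary gland forms. At Tbx2 (chromosome 11, 85832615 to 85841948, plus strand) H3K4me3 was 63.0 and 40.0 CPM in Lgr5+Tspan8hi and 63.1 and 66.4 CPM in Lgr5+Tspan8- libraries, against 88.0 and 62.7 CPM in Lgr5-Tspan8hi and 116 and 144 CPM in Lgr5-Tspan8- libraries. Lgr5-Tspan8- libraries were the highest, and within Tspan8hi cells the sides overlapped narrowly. The log2 difference was -0.79 ± 0.15 (adjusted p = 0.00322), and the call ended on leaving out replicate 2 of Lgr5+Tspan8hi or of Lgr5-Tspan8- cells, or replicate 1 of Lgr5+Tspan8- or of Lgr5-Tspan8hi cells (adjusted p up to 0.288). Within Tspan8- cells it was -1.02 and passed in edgeR (adjusted p = 0.0256) but not in DESeq2, whereas within Tspan8hi cells it was -0.56 (adjusted p = 0.588). The difference between these values did not pass (interaction adjusted p = 1.0). H3K27me3 at Tbx2 was 91.6, 105, 83.4 and 73.3 CPM in the Lgr5+ libraries, Tspan8hi before Tspan8-, against 80.6, 97.8, 33.5 and 28.8 CPM in the Lgr5- libraries. It was lowest in the Lgr5-Tspan8- pair, and the log2 difference was 0.73 ± 0.12 (adjusted p = 0.0113). It was 0.13 within Tspan8hi cells (adjusted p = 0.888), where libraries overlapped, and 1.34 within Tspan8- cells (adjusted p = 0.000354), and the contrast of these did not pass (adjusted p = 0.159). This H3K27me3 call ended on leaving out Lgr5+Tspan8hi replicate 2, either Lgr5+Tspan8- library or Lgr5-Tspan8- replicate 2 (adjusted p up to 0.405).

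The uncharacterised gene 2610027K06Rik starts 227 bases from Tbx2 on the other strand, so reads at that promoter cannot be told apart, and it moved with Tbx2 (log2 difference -0.77 ± 0.15, adjusted p = 0.0056; -1.05 within Tspan8- cells). No other gene within 500 kb passed. Tbx4, 53.8 kb away, stood at -0.07, Bcas3 at 0.01 and Brip1 at -0.06, and none of 7 neighbours had an unadjusted p under 0.05. Of 16 T-box genes 13 were tested, 10 lay below 0 (median -0.18) and Tbx2 passed. Tbx3, a T-box factor needed for mammary development, averaged 163 CPM in Lgr5+ libraries and 154 CPM in Lgr5- libraries and did not pass (0.10 ± 0.11). Eomes, at 25.2 and 34.4 CPM (means of Lgr5+ and of Lgr5- libraries), and Tbx15, at 19.2 and 27.8 CPM in that order, had log2 differences of -0.46 and -0.54 and did not pass.

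Ptprt encodes a receptor-type tyrosine phosphatase that mediates adhesion between cells. With the promoter window printed above (gene at chromosome 2, 161521988 to 162661147), it had 25.7 and 31.6 CPM in Lgr5+Tspan8hi and 37.2 and 55.5 CPM in Lgr5+Tspan8- libraries, against 72.5 and 53.6 CPM in Lgr5-Tspan8hi and 54.8 and 77.0 CPM in Lgr5-Tspan8- libraries. Within Tspan8hi cells the sides were apart, and within Tspan8- cells they overlapped at Lgr5+ replicate 2 and Lgr5- replicate 1. The log2 difference was -0.84 ± 0.18 (adjusted p = 0.0336), with -1.12 within Tspan8hi and -0.56 within Tspan8- cells. The call ended with DESeq2 and on leaving out either Lgr5+Tspan8hi library, replicate 1 of Lgr5+Tspan8- or of Lgr5-Tspan8hi cells, or replicate 2 of Lgr5-Tspan8- cells, with log2 differences of -0.99 to -0.70 over all 16 alternatives. The uncharacterised 9430021M05Rik, which starts 16 bases away on the plus strand, had -0.80 ± 0.18 (adjusted p = 0.0388), and these reads cannot be told apart. H3K27me3 counted for 9430021M05Rik did not pass (log2 difference -0.02 ± 0.18, adjusted p = 0.988), with side means of 34.9 (Lgr5+) and 36.9 CPM (Lgr5-). It was -0.50 within Tspan8hi and 0.45 within Tspan8- cells, and neither passed. The region counted per gene is not given, so a H3K27me3 difference at the shared promoter itself was not tested. The Lgr5+ mean of H3K27me3 was 1804 CPM at Ptprt, a gene of 1139160 bp, and 34.9 CPM at 9430021M05Rik, of 14042 bp. The Ptprt value is therefore not one of the shared promoter alone. H3K27me3 at Ptprt was 1783, 1894, 1751 and 1790 CPM in the Lgr5+ libraries, Tspan8hi before Tspan8-, against 1577, 1527, 1130 and 1095 CPM in the Lgr5- libraries. All Lgr5+ libraries lay above all Lgr5- libraries, as at 465 genes in this mark (2.1%). Within Tspan8- cells the log2 difference was 0.67 and passed (adjusted p = 0.00186), and within Tspan8hi cells it was 0.24 and did not (adjusted p = 0.663). Averaged over both states it was 0.46 ± 0.07 and passed (adjusted p = 0.00536). That call ended on leaving out Lgr5+Tspan8hi replicate 2 or either Lgr5+Tspan8- library (adjusted p up to 0.174).

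Among receptor tyrosine phosphatases 18 of 21 were tested, 8 lay below 0 (median 0.0146), and Ptprt alone passed. Of 7 neighbours within 500 kb, picked out after its values were seen, L3mbtl1, a methyl-lysine reader 281 kb from Ptprt, averaged 27.2 CPM in Lgr5+ libraries and 43.1 CPM in Lgr5- libraries without overlap, but did not pass (log2 difference -0.65 ± 0.22, adjusted p = 0.837). Srsf6, a splicing factor gene 270 kb away, stood on the other side at 0.26 ± 0.12 and did not pass (adjusted p = 0.961).

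**Figure D2:**
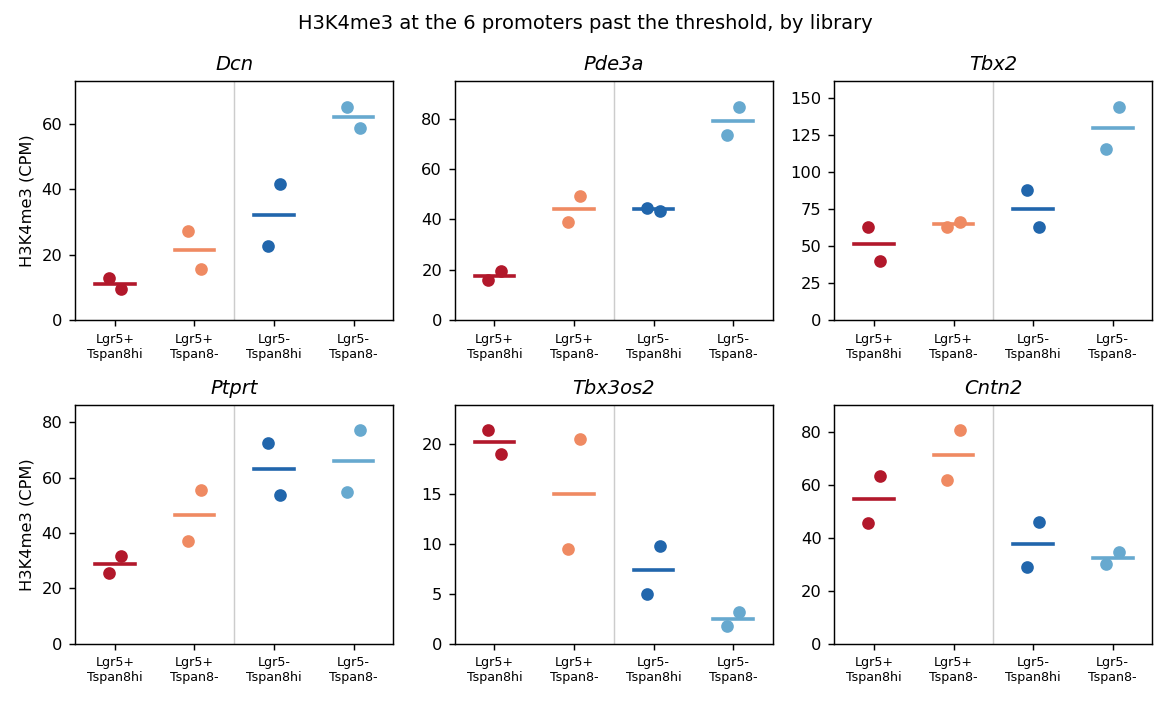
H3K4me3 in CPM (y axis, from 0) at the 6 promoters past the threshold, with a point for each of 2 libraries and a line at their mean in Lgr5+Tspan8hi, Lgr5+Tspan8-, Lgr5-Tspan8hi and Lgr5-Tspan8- cells. Dcn was 9.38 to 27.3 CPM in Lgr5+ libraries and 22.8 to 65.3 CPM in Lgr5- libraries, and Cntn2 and Tbx3os2 run the other way.

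Cntn2 encodes contactin-2, a cell surface adhesion protein of the immunoglobulin superfamily best known from neurons. At Cntn2 (chromosome 1, 132509425 to 132543251) H3K4me3 was 45.8 and 63.5 CPM in Lgr5+Tspan8hi and 62.0 and 80.8 CPM in Lgr5+Tspan8- libraries, against 29.2 and 46.1 CPM in Lgr5-Tspan8hi and 30.3 and 34.8 CPM in Lgr5-Tspan8- libraries. A single pair overlapped, 45.8 CPM in Lgr5+Tspan8hi replicate 1 and 46.1 CPM in Lgr5-Tspan8hi replicate 2. The log2 difference was 0.82 ± 0.18 (adjusted p = 0.0471), 0.54 within Tspan8hi and 1.10 within Tspan8- cells. The call ended under 10 of 16 alternatives, namely DESeq2, RLE factors, library totals, loess offsets and each library left out but Lgr5+Tspan8hi replicate 1 and Lgr5-Tspan8hi replicate 2 (adjusted p up to 0.635). H3K27me3 at Cntn2 averaged 32.2 ± 11.1 CPM over Lgr5+ libraries and 48.2 ± 12.1 CPM over Lgr5- libraries (SD over 4 libraries on each side; log2 difference -0.59 ± 0.16, adjusted p = 0.261). Within Tspan8- cells its H3K27me3 log2 difference was -1.18 and passed (adjusted p = 0.0284), within Tspan8hi cells it was 0.004, and the contrast of the states did not pass (adjusted p = 0.451). Of 15 contactins and partner genes 10 were tested, 6 lay above 0 (median 0.15) and Cntn2 alone passed. Of its 12 neighbours within 500 kb 8 lay above 0 (median 0.0158) and none had an unadjusted p under 0.05.

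Tbx3os2 is an opposite-strand transcript near Tbx3, and lies at chromosome 5, 119685088 to 119691218. Its level was 21.4 and 19.1 CPM in Lgr5+Tspan8hi and 9.48 and 20.6 CPM in Lgr5+Tspan8- libraries, against 5.01 and 9.85 CPM in Lgr5-Tspan8hi and 1.75 and 3.17 CPM in Lgr5-Tspan8- libraries. Lgr5+ libraries were higher within each Tspan8 state, with an overlap across states of 9.48 and 9.85 CPM. The mean was 17.6 ± 5.52 CPM over Lgr5+ libraries and 4.95 ± 3.53 CPM over Lgr5- libraries (SD over 4 libraries on each side), a ratio of 3.56, and the log2 difference was 1.93 ± 0.42 (adjusted p = 0.0388). Counts were 3 to 61 reads per library, the smallest behind any of the calls, and the call ended with limma-voom and with each library left out but Lgr5+Tspan8- replicate 1 and Lgr5-Tspan8hi replicate 2 (adjusted p up to 0.759). Tbx3, whose start is 20.7 kb away, showed no such difference, and nor did Tbx5 at 105 kb (-0.09 ± 0.36). H3K27me3 was 2.8 to 9.31 CPM in Lgr5+ libraries and 5.10 to 11.6 CPM in Lgr5- libraries (log2 difference -0.67 ± 0.34, adjusted p = 0.71).

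H3K27me3 is a different mark, counted in other libraries that carry the same sample numbers, 1 to 8, in the labels, so differences between samples may be shared by both marks. It passed the threshold between Lgr5+ and Lgr5- at 9 of 22099 genes (0.0407%), 3 higher (0.0136%) and 6 lower (0.0272%). The 3 higher, which passed within Tspan8- but not within Tspan8hi cells, were Pde3a, Ptprt and Tbx2, each of them lower in H3K4me3. The region counted per gene is not given, so whether both marks differ at the same place in these genes was not tested. Higher calls numbered 22 with DESeq2, 19 with limma-voom and 24 with the replicate block, and of the 3, Pde3a alone kept its H3K27me3 call under all 16 alternatives. Of the 6 genes lower in H3K4me3, which lie at 4 promoters, 5 had an H3K27me3 difference above 0. Of the 2 higher genes 0 did, beside 47.5% of the 16354 genes tested for both marks. The set at an unadjusted p under 0.001 holds the called genes too. In it, H3K27me3 was above 0 at 13 of 17 genes lower and at 3 of 9 genes higher in H3K4me3. At an unadjusted p under 0.05 the shares were 51.7% and 50%.

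The 6 genes with lower H3K27me3 in Lgr5+ libraries were Enah, which promotes actin filament growth, the tight junction gene Ocln, the calcium-regulated factor Nfatc1, the hedgehog effector Gli2, the adhesion gene Cadm4 and the adrenergic receptor gene Adra1d. Enah kept its call under all 16 alternatives, while Ocln lost it under 3, Nfatc1 and Gli2 under 5 and Cadm4 and Adra1d under 6, nearly all of them left-out libraries (adjusted p up to 0.566). None passed in H3K4me3. Ocln came nearest, with H3K4me3 at 94.2 to 116 CPM in Lgr5+ libraries and 76.4 to 93.4 CPM in Lgr5- libraries without overlap (log2 difference 0.37 ± 0.13, adjusted p = 0.926; H3K27me3 -0.72 ± 0.12, adjusted p = 0.0102). Adra1d had 0.45 ± 0.20 in H3K4me3 with overlapping libraries (adjusted p = 0.961). Enah, with the smallest H3K27me3 p-value of the 6, averaged 102 CPM of H3K4me3 over Lgr5+ libraries and 106 CPM over Lgr5- libraries (-0.04 ± 0.13, against -0.90 ± 0.11 in H3K27me3).

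**Figure D3:**
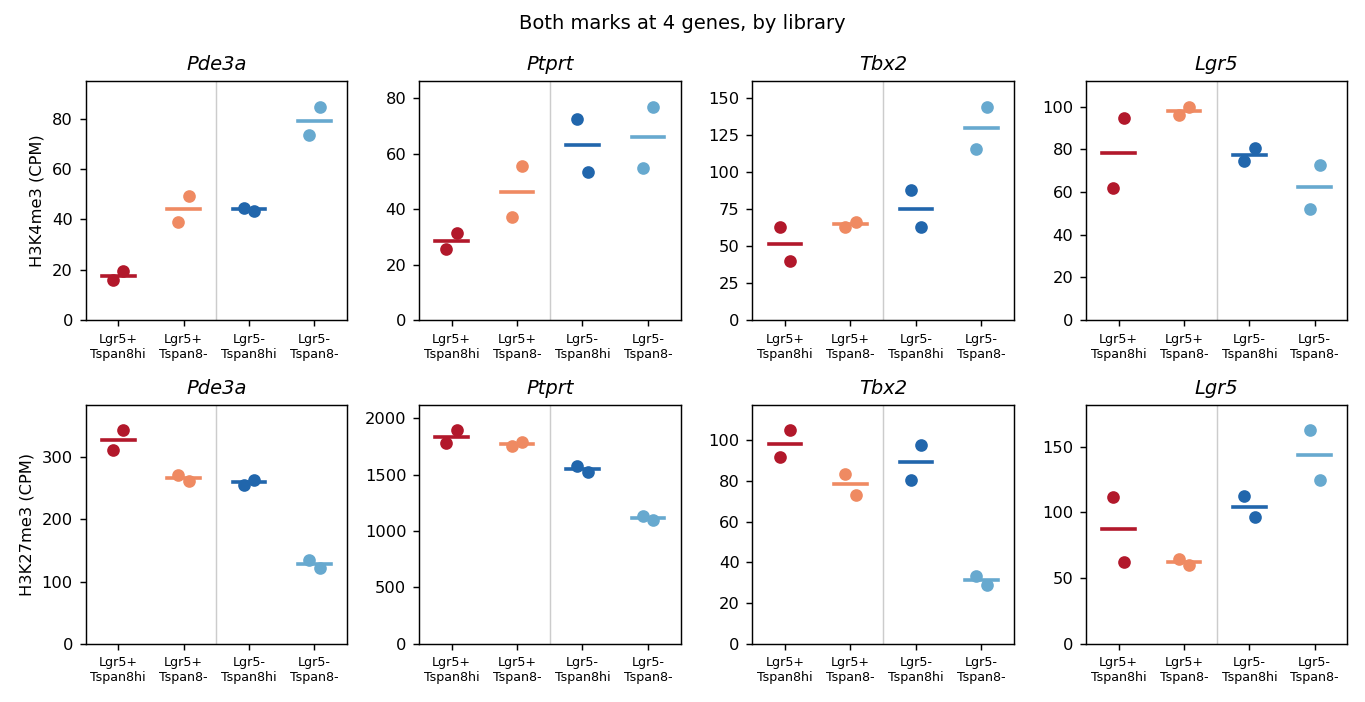
H3K4me3 (top) and H3K27me3 (bottom) in CPM, from 0, at Pde3a, Ptprt, Tbx2 and Lgr5, with a point for each library and a line at the mean of 2 in Lgr5+Tspan8hi, Lgr5+Tspan8-, Lgr5-Tspan8hi and Lgr5-Tspan8- cells. At Pde3a, Ptprt and Tbx2 the Lgr5-Tspan8- libraries have the lowest H3K27me3, down to 122, 1095 and 28.8 CPM.

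The difference with Lgr5 can be read in each Tspan8 state from separate libraries. Within Tspan8hi cells 0 genes passed in edgeR (1324 at an unadjusted p under 0.05, 6.97%). DESeq2 and limma-voom also called 0 there. Within Tspan8- cells 2 passed (0.0105%), Tbx2 and 2610027K06Rik (510 unadjusted, 2.68%), against 0 with DESeq2 and 6 with limma-voom, and 0 without either Lgr5+Tspan8- replicate 2 or Lgr5-Tspan8- replicate 2. For the interaction 0 passed in edgeR, DESeq2 and limma-voom, with 799 unadjusted (4.2%). Over all genes the log2 differences of the Tspan8 states had a Pearson correlation of -0.02 across 19009 genes, which are not independent, and 51.4% had the same sign. At genes with a mean of at least 20 CPM the correlation was 0.07 and the same sign was seen at 52.2% of 13888 genes. An unadjusted p under 0.05 in both states was reached by 54 of the 19009 genes, 37 of them with the same sign. Besides the called genes these included Spon2, a secreted matrix protein (-0.65 within Tspan8hi and -0.51 within Tspan8- cells), and Spock3, a matrix proteoglycan (-1.25 and -1.09), neither called by edgeR (adjusted p = 0.239 and 0.365), though limma-voom called Spon2. Among the smallest interaction p-values were those of the transmembrane gene Tmem200c (-0.89 within Tspan8hi and 0.49 within Tspan8- cells, adjusted p = 0.626), the cytokine gene Il7 (-0.56 and 0.52) and Dmrta1 (1.86 and -1.08).

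**Figure D4:**
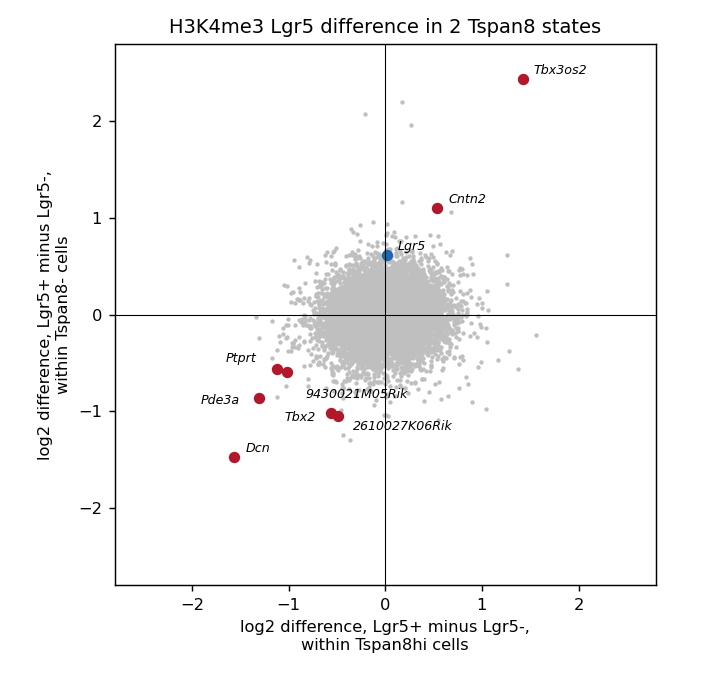
H3K4me3 log2 difference, Lgr5+ minus Lgr5-, within Tspan8hi (x axis) and within Tspan8- cells (y axis) for 13888 genes with a mean of at least 20 CPM (grey), the 8 genes past the threshold at any level (red) and Lgr5 (blue). The cloud has a Pearson correlation of 0.07, Dcn sits at -1.56 and -1.47, and Lgr5 sits at 0.02 and 0.62.

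None of the 8 called genes had all 4 Lgr5+ libraries on the same side of all 4 Lgr5- libraries, which was seen at 539 other genes (2.84%), 300 with Lgr5+ higher (1.58%) and 239 with Lgr5+ lower (1.26%). Within both Tspan8 states, Dcn, Pde3a and 9430021M05Rik had both Lgr5+ libraries below both Lgr5- libraries, as 503 genes did (2.65%), and Tbx3os2 had them above, as 548 did (2.88%), together 5.53% of genes. None of the 539 genes with all 4 Lgr5+ libraries on the same side passed. Those of the 539 with the smallest p-values are given as values, leaving out predicted genes such as Gm19600 (0.94, adjusted p = 0.239) and genes without a symbol. Oga, the enzyme that removes O-GlcNAc from proteins, was at 136, 120, 138 and 137 CPM in the Lgr5+ libraries, Tspan8hi before Tspan8-, against 92.5, 85.5, 105 and 98.4 CPM in the Lgr5- libraries (log2 difference 0.48 ± 0.12, adjusted p = 0.264). Col6a1, a chain of collagen VI, was at 42.8, 40.4, 35 and 41.8 CPM in Lgr5+ libraries, against 25.5, 26.4, 21.0 and 16.3 CPM in Lgr5- libraries (0.87 ± 0.23, adjusted p = 0.365). The SD over the 4 Lgr5+ libraries was 8.63 CPM at Oga and 3.48 CPM at Col6a1.

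Others higher in all Lgr5+ libraries were Krba1 (0.56), the epidermal lipoxygenase gene Aloxe3 (0.47), the calcium-regulated factor Nfatc2 (0.53), the RNA methyltransferase gene Nsun6 (0.44), the histone-binding subunit gene Rbbp4 (0.42) and Taf6 (0.48), a subunit gene of TFIID. Each of Krba1, Nsun6, Rbbp4 and Taf6 shares its promoter with another gene (Gm16630, Arl5b, Zbtb8os and Cnpy4), so the reads there cannot be told apart. On the lower side were the chemokine gene Ccl2, at 1.56 to 5.47 CPM in Lgr5+ libraries and 11.1 to 15.5 CPM in Lgr5- libraries (-1.80 ± 0.50, adjusted p = 0.559), the peptidase gene Dpp9 (-0.55), Cpm, a membrane carboxypeptidase (-0.56), Vwa2 (-0.59), Slc26a10 (-0.99), Tmeff2 (-0.50), the laminin chain gene Lama1 (-0.44), the phosphatase gene Ptpn1 (-0.41) and Slc26a5, which encodes prestin (-0.93). All had adjusted p-values from 0.559 to 0.711.

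Of the 9 genes for R-spondins, their receptors and the ligases they act on, all were tested and 0 passed. The smallest p-values were those of the ligand gene Rspo2, at 3.43 to 10.6 CPM in Lgr5+ libraries and 5.01 to 23.9 CPM in Lgr5- libraries (log2 difference -1.09 ± 0.42, adjusted p = 0.926), and of the receptor gene Lgr4, with a mean of 124 CPM over Lgr5+ and of 149 CPM over Lgr5- libraries (-0.28), followed by Lgr5 itself. The ligase genes Rnf43 and Znrf3 stood at -0.07 and -0.06. Of 19 Wnt ligands 18 were tested and 15 lay below 0, with a median of -0.061. Wnt4, a ligand that acts downstream of progesterone, was at 43.8 to 54.4 CPM in Lgr5+ libraries and 59.5 to 70.2 CPM in Lgr5- libraries without overlap, and did not pass (-0.34 ± 0.16, adjusted p = 0.971). Among 15 Wnt receptors, 10 below 0 with a median of -0.0869, the co-receptor gene Lrp6 was at 95.2 to 120 CPM in Lgr5+ libraries and 122 to 170 CPM in Lgr5- libraries without overlap (-0.34 ± 0.12, adjusted p = 0.926). Of 12 tested Wnt inhibitors 7 lay above 0 (median 0.0364), and of 15 effectors and targets 9 (median 0.0118). None of these lists held a call.

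Markers of the cell types that such a sort could hold had few calls as well. Of 12 pan-luminal genes 10 lay above 0, with a median of 0.143, and 0 passed; Krt8, a luminal keratin, was at 114 and 102 CPM and Cd24a, a luminal surface marker, at 153 and 130 CPM (Lgr5+ and Lgr5- means). The same genes in H3K27me3 had 10 of 12 below 0. All 6 tested of 10 adipocyte genes lay below 0 (median -0.509) and 0 passed. Among them Plin4, a lipid droplet protein, was at 3.44 to 11.7 CPM in Lgr5+ libraries and 7.49 to 28.6 CPM in Lgr5- libraries (-1.39 ± 0.38, adjusted p = 0.46), and the fat cell regulator Pparg averaged 40.4 and 47.5 CPM (Lgr5+ and Lgr5- means). The summed adipocyte markers were 263 to 301 CPM in Lgr5+ libraries and 288 to 339 CPM in Lgr5- libraries, which overlapped. Basal and myoepithelial genes had a median of -0.0338 over 19 tested, luminal progenitor genes -0.0716 over 11, hormone-sensing luminal genes -0.008 over 12 and pericyte genes 0.0182 over 10, and 0 passed. Of 14 immune markers 2 were tested, and all 14 summed to 14.6 to 40.4 CPM in Lgr5+ libraries and 18.1 to 34.2 CPM in Lgr5- libraries. The 2 tested, Ptprc and Cd4, had log2 differences of 1.01 and -0.89 and did not pass. Outside the list, the T cell genes Cd3d and Cd3g were higher in all Lgr5+ libraries, at low levels, without passing (adjusted p = 0.862 and 0.925). They averaged 5.25 and 5.15 CPM over Lgr5+ libraries, and each 0.769 CPM over Lgr5- libraries. At the Lgr5- level neither would have passed the filter on low counts, so they were tested only because of their Lgr5+ libraries. Their direction is therefore no result. The values of Cd3d and Cd3g are nearly equal, and whether they rest on the same reads was not tested.

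Developmental transcription factor genes, classical Polycomb targets, had 20 of 30 members below 0 in H3K4me3, with a median of -0.182. The median was -0.0063 within Tspan8hi and -0.289 within Tspan8- cells, and 0 passed. In H3K27me3 27 of the 30 were below 0 too, with a median of -0.175. The 39 Hox genes split as 21 above and 18 below 0 in H3K4me3, with medians of 0.205 within Tspan8hi and -0.343 within Tspan8- cells, and 34 were below 0 in H3K27me3. In the 1574 genes with most H3K27me3 per kb, the H3K4me3 median was -0.0594, while the 3802 genes of lowest H3K4me3 level had a median of -0.039, the next 3802 one of -0.0524 and the 3802 of highest level 0.017. The 1574 genes had medians of -0.0054 within Tspan8hi and -0.125 within Tspan8- cells. The 3802 of lowest level had 0.0568 and -0.138 in that order, so such a split is not particular to these lists.

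**Figure D5:**
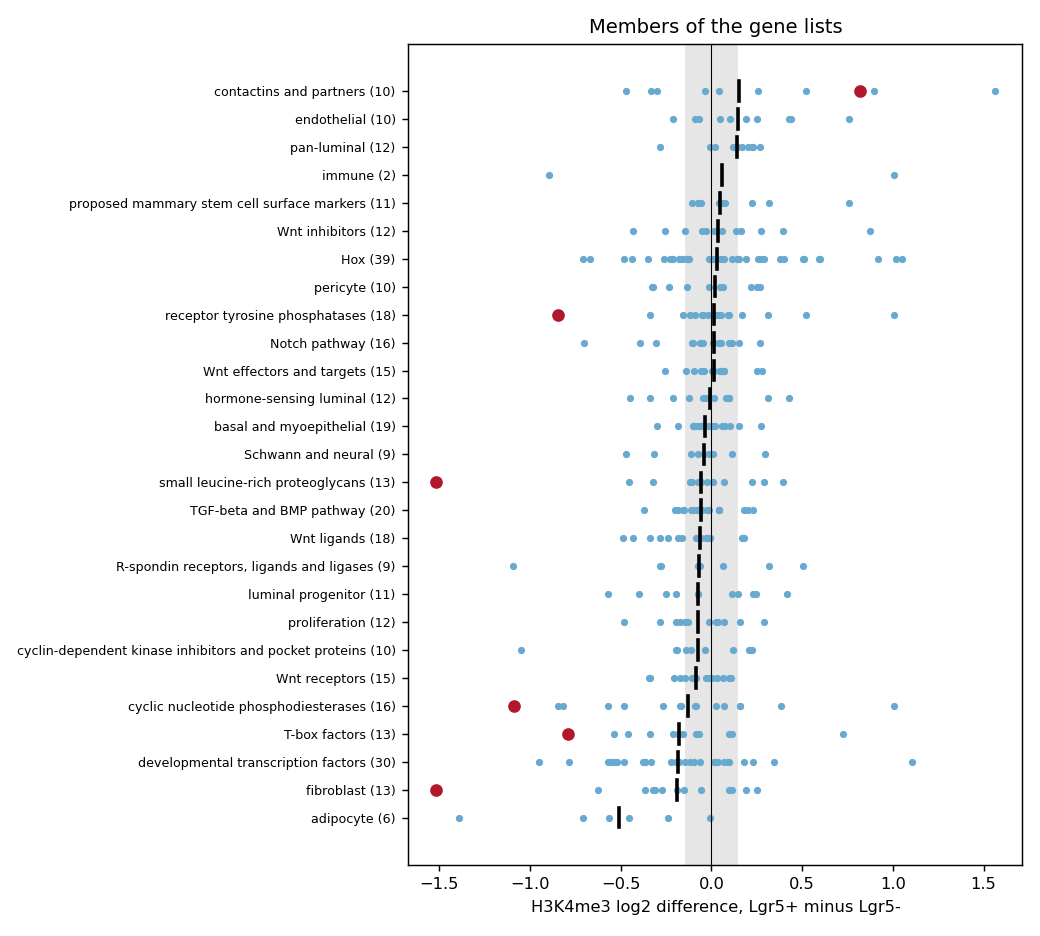
H3K4me3 log2 difference, Lgr5+ minus Lgr5-, for each tested member of 27 gene lists (blue points; number tested in brackets), with members past the threshold in red, list medians as black bars and the range between the 25th and 75th percentiles of all tested genes, -0.141 to 0.14, in grey. List medians run from -0.509 for adipocyte genes to 0.15 for contactins and partners.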

How the data were processed

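Per the labels' protocols, chromatin from the sorted cells was cut to 200 to 400 bp and each mark was pulled down with its antibody. The authors deposited raw read counts for 27080 Entrez genes per library, made with featureCounts on mm10, per the submitters' processing notes. Which region was counted per gene, and which aligner, is not given in the sources used here. RefSeq GRCm38.p6, the assembly mm10 denotes, gave symbols for 25189 identifiers.

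The 8 libraries of each mark were fitted with edgeR 4.0.16 in R 4.3.3 (filterByExpr, TMM, 1 mean per subpopulation, robust quasi-likelihood test), leaving 19009 genes for H3K4me3 and 22099 for H3K27me3. Genes passed at an adjusted p under 0.05. The common biological coefficient of variation was 16% and 16.8%, and 4 residual degrees of freedom remained per mark. The spread pooled over genes carried a median of 98.7 degrees of freedom for H3K4me3 and 21.3 for H3K27me3. At a typical gene it therefore weighed more in the p-value than the spread of that gene's own libraries. Standard errors come from the F statistic, CPM are TMM-scaled, and total counts set the precision, most of all at low genes. Alternatives were DESeq2 1.42.0, limma-voom (limma 3.58.1), RLE factors, library totals, loess offsets, no filter, a mean of at least 5 CPM, a replicate block and each library left out.

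Named were Lgr5 and Tspan8, every called gene, up to 10 higher and 10 lower non-overlapping genes by p, up to 3 members per list by p, the smallest interaction p-values and up to 4 H3K27me3 calls each way. List members outside it, Spon2, Spock3, Cd3d, Cd3g, neighbours, and the other H3K27me3 calls were named after their values were seen. The comparison, lists and members were chosen with earlier results of these data known. The 27 gene lists covered epithelial, stromal, blood vessel, immune, fat and nerve cell markers, Wnt, R-spondin, Notch and TGF-beta pathway genes, the families of the called genes, growth control, proposed stem cell markers, developmental factors and Hox genes. Values of some genes that this rule names are not reported here.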

Additional observations from a re-analysis of the deposited data

Results flagged for a closer look

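Among 84 sets of 4 libraries looked at, 9 had a highest or lowest library far from the other 3, by the gap to its neighbour as a share of the range, where chance gives about 1 in 20. At Lgr5 the share was 0.856, with 61.7 CPM in Lgr5+Tspan8hi replicate 1 below 94.5 CPM in the next Lgr5+ library. Lgr5+Tspan8hi replicate 2 was the low library at Tbx2 (0.868; 40.0 below 63.0 CPM), at 2610027K06Rik, which shares that promoter (0.979; 37.8 below 64.5 CPM), and at Oga (0.91; 120 below 136 CPM). Lgr5+Tspan8hi replicate 1 was the high library at Taf6 (0.864) and Cnpy4 (0.905), which share a promoter, both next to 78.5 CPM. At Krba1 the Lgr5-Tspan8hi replicate 1 library, at 42.4 CPM, stood below 54.0 CPM (0.978).

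The summed endothelial markers were 218 CPM in Lgr5+Tspan8hi replicate 1 and 108 CPM in the next Lgr5+ library (0.938). Over Lgr5+ libraries these sums ran from 101 to 218 CPM, and over Lgr5- libraries from 95 to 152 CPM. Of 12 endothelial genes 10 were tested, 7 lay above 0 (median 0.147) and 0 passed. Their median was 0.84 within Tspan8hi and -0.438 within Tspan8- cells. The summed pan-luminal markers were 991 CPM in the same library, next to 922 CPM (0.839), with 801 to 964 CPM in Lgr5- libraries. The part of other cells in these values was not tested.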

How the results depend on the processing

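Dcn kept its call under all 16 alternatives (log2 difference -1.77 to -1.26) and Pde3a under 15, losing it without Lgr5-Tspan8- replicate 2 (adjusted p = 0.136). Tbx2 lost it under 4, Ptprt under 6, Tbx3os2 under 7 and Cntn2 under 10, with no change of sign. H3K4me3 calls were 5 with DESeq2 (1 higher), 9 with limma-voom (1 higher), and 7 with RLE factors, library totals or loess offsets (1 higher in each); leaving out a library gave 1 to 10 (0 to 4 higher, 1 to 7 lower). Dropping Lgr5-Tspan8- replicate 2 left 1 call (Dcn), dropping either Lgr5+Tspan8hi replicate 2 or the first Lgr5-Tspan8hi library left 2, and dropping Lgr5+Tspan8hi replicate 1 left 5; without Lgr5+Tspan8- replicate 1, 3 of 6 were among the 8. Within Tspan8- cells calls were 0 with DESeq2, 6 with limma-voom (1 higher, 5 lower) and 4 with the replicate block (1 higher), and 0 to 5 over left-out libraries (0 to 3 higher, 0 to 3 lower). Within Tspan8hi cells these gave 0 to 51 (0 to 35 higher, 0 to 16 lower) and for the interaction 0 to 7 (0 to 6 higher, 0 to 3 lower). H3K27me3 calls were 71 with DESeq2 (22 higher, 49 lower), 53 with limma-voom (19 and 34), 15 with loess offsets (6 higher), 42 with no filter (13 and 29) and 80 with the replicate block (24 and 56), and 2 to 180 over left-out libraries (1 to 115 higher, 1 to 77 lower). The replicate numbers were not taken as a pairing. Replicate 1 minus replicate 2 had correlations between subpopulations of -0.03 to 0.14 in H3K4me3 and 0 to 0.14 in H3K27me3. Differences between single libraries carry counting noise, so low correlations do not show whether same-numbered libraries share a batch, which was not tested. With the replicate block the averaged H3K4me3 count was 8, but the H3K27me3 and within-Tspan8- counts moved as given above. Where an arm kept 1 library, it was taken to vary like the others. Leaving out libraries turned the sign of H3K4me3 at Tspan8 (-0.05 to 0.15), Aldh1a3 (-0.85 to 0.12), Esam (-0.30 to 0.57), Lep (-0.92 to 0.25), L1cam (-0.79 to 0.07), Il7 (-0.07 to 0.03), Dmrta1 (-0.08 to 3.57), Enah (-0.16 to 0.04), Nfatc1 (-0.02 to 0.23), Gli2 (-0.27 to 0.06) and Cadm4 (-0.17 to 0.10), and of H3K27me3 at Dcn (-0.08 to 0.32), none of which are calls. No library measure passed with a library left out (lowest exact permutation p = 0.0571, share on X). The cause of these shifts was not tested. Under the scalings the median of all genes was between -0.006 and 0.003.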

Other observations

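H3K4me3 at 3 genes was high in a single library, picked out after their values were seen. Ilf2, a double-stranded RNA binding factor, had 312 CPM in Lgr5+Tspan8- replicate 2 and at most 57.2 CPM in the other 7 libraries. Ndufs7, a subunit of respiratory complex I, had 425 CPM there and at most 70.6 CPM elsewhere, and 4833417C18Rik had 553 CPM and at most 82.7 CPM. Among 13715 genes whose other 7 libraries averaged 20 CPM or more, these were the only 3 at which any library was at least 3 times the next one. Their log2 differences were 1.11, 0.93 and 1.19 with no call (adjusted p = 0.979, 0.999 and 0.979). H3K27me3 in the matching Lgr5+Tspan8- replicate 2 library was 1.94 CPM at Ilf2 and 2.33 CPM at Ndufs7, inside or below the range of the other libraries. When Lgr5+Tspan8- replicate 1 was left out, all 3 passed as higher in Lgr5+ libraries. The same library has the smallest total count, 1472251; its part in these values was not tested. The opposite pattern, a library at least 3 times below the next lowest, was seen at 7 genes in Lgr5-Tspan8hi replicate 1 and at 1 gene each in Lgr5+Tspan8hi replicates 1 and 2.

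Other pathways held no call. Of 16 Notch genes 9 lay above 0 (median 0.0121), of 20 tested TGF-beta and BMP genes 6 (median -0.059), and of 9 tested Schwann and neural genes 3 (median -0.04). Proliferation genes had 5 of 12 above 0 (median -0.0721), cyclin-dependent kinase inhibitors and pocket proteins 4 of 10 (median -0.0728), and proposed mammary stem cell surface markers 7 of 11 (median 0.0448). Around Lgr5 and Tspan8, which lie 229 kb apart, 7 of 8 and 8 of 8 tested genes within 500 kb had a log2 difference above 0, with medians of 0.11 and 0.246, beside 50.8% of all tested genes; both windows share most of their genes. None but Lgr5 had an unadjusted p under 0.05.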
